A study of Mus musculus with 16 samples.

Results

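Ribosome biogenesis and nucleolar genes were examined in cortical bone of the femur from 16 female C57Bl/6 mice, and 43 such genes (members) were taken by symbol from the 36829 features listed for each mouse. The mice were 11 weeks old, and 8 of them (HLU) had their hindlimbs unloaded by tail suspension for 7 days while the other 8 (control) bore weight normally. The labels name no transgene, deletion or drug, and both groups share strain, sex and age. The bone ends were cut off and the marrow was flushed before RNA extraction, so the RNA comes from whatever cells remained in the shaft, and fewer cells of a type cannot be told apart from less RNA per cell. Values are RPKM, the reads on a gene scaled by the length of the gene and by the number of reads in the library, with 1 library per mouse. All 43 members were listed and all passed the minimum mean of 0.5 RPKM that left 16973 features for testing.

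Ribosomes are built in the nucleolus. RNA polymerase I transcribes the ribosomal RNA precursor there, small nucleolar ribonucleoproteins (snoRNPs) modify it, with box C/D particles adding methyl groups and box H/ACA particles converting uridine to pseudouridine, and large sets of assembly factors then cleave and fold it into the small and the large subunit. The transcription factor Myc is known to drive many genes of this process, and demand for new ribosomes is high in growing and dividing cells, such as the precursors of blood cells.

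The libraries were divided by 7067512 to 21363584 reads in the making of the RPKM values, and whole reads could be recovered for 99.91% of the features kept, at a tolerance of 0.02 reads. The members carried between 31 reads (Fbl) and 22415 reads (Ncl) in a library. Osteocyte markers (6 of 6 listed, with Sost, Dmp1 and Mepe among them) summed to 179 to 589 RPKM in control and 263 to 598 RPKM in HLU mice. Erythroid markers summed to 3050 to 8683 RPKM in control and 1674 to 4470 RPKM in HLU mice, mature granulocyte markers to 17830 to 38360 and 12690 to 45220 RPKM, and no marker listed was at 0 in all mice. HLU 4 and HLU 7 had the lowest median correlation with the other libraries, at 0.868 and 0.871. The divisor lengths exceeded the longest coding transcript of GENCODE M21 by over 1.5 times in 18 members, with Nop56 at 8.13 times, and fell under 0.8 times in 5. Levels are therefore compared between mice for 1 gene, and not ordered between genes. In all, 16 members overlap another gene that is not a small RNA, such as Bysl with Ccnd3 and Gnl3 with Pbrm1, and 7 overlap snoRNA genes. No source used here says that reads were counted by strand, so those of such neighbours cannot be told apart.

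The sequences just upstream of the members were searched for promoter motifs, and 6 of them are shown because they span the results. Gar1 and Imp4 were among the members lower in HLU mice, and Nop2 and Rrn3 hold the E-box and did not pass the test. Ncl and Bysl stand for members with transcripts of low and high GC content. Their r between mice within groups was -0.39, and 0.31 once the GC content of the libraries was taken into account, as described below. RefSeq promoter windows were matched for 37 of the 43 members (GRCm38.p6). Each line gives the 250 bases before the transcription start, 5′ to 3′. Capitals mark the E-box CACGTG, to which Myc and related factors bind, and the ETS core CCGGAA in either orientation (TTCCGG on the other strand), with overlapping matches joined.
Gar1, chr3:129831397-129831646, minus strand: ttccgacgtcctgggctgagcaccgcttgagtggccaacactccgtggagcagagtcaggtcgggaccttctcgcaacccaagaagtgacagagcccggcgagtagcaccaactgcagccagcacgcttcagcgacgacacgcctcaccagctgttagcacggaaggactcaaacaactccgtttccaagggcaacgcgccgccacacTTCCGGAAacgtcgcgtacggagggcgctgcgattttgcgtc
Imp4, chr1:34439579-34439828, plus strand: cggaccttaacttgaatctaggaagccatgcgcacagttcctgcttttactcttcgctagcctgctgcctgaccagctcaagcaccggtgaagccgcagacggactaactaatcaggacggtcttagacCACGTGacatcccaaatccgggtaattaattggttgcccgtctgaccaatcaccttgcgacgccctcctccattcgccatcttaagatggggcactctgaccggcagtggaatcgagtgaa
Nop2, chr6:125131633-125131882, plus strand: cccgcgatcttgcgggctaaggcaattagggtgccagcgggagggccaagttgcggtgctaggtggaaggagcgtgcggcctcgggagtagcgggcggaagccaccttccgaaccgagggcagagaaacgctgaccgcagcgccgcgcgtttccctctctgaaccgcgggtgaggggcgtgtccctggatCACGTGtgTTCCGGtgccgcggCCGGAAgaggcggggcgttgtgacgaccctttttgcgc
Rrn3, chr16:13780449-13780698, plus strand: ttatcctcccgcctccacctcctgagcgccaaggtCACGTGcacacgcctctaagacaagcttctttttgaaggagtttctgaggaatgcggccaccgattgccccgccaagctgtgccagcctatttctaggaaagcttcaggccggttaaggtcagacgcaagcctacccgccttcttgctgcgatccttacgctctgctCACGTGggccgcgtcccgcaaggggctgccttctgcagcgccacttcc
Ncl, chr1:86359456-86359705, minus strand: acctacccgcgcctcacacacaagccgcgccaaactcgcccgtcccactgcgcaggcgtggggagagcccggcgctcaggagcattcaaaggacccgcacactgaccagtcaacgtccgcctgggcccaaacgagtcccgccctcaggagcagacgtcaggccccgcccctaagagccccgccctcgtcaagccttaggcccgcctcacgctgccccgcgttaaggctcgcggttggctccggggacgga
Bysl, chr17:47611493-47611742, minus strand: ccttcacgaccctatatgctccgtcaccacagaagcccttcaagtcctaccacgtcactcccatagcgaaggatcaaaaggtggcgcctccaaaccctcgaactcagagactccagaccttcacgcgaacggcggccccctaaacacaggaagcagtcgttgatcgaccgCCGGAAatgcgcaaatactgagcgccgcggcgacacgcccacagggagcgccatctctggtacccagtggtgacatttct

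In these 250 bases the E-box was present in 4 of 37 members (10.8%), Nop2, Utp18, Imp4 and Rrn3, against 6.86% of the windows of 27025 genes and 9.66% of 9455 windows of genes tested. With the first 50 transcribed bases included, the E-box was present in 9 members (24.3%), against 8.09% and 11.4%. The ETS core was present upstream in 16 members (43.2%), against 13.6% and 24.3%. The CCAAT box (CCAAT or ATTGG) was found in 13 members (35.1%), against 37.5% and 40.0%, and the GC box (GGGCGG or CCGCCC) in 20 (54.1%), against 35.4% and 61.3%. The palindromic NRF1 site was found in 0 of 37 members, against 0.877% and 1.82%. Rrn3 holds the E-box at 2 positions and Ncl holds neither marked motif in this window. The matches are a description of the letters, and no binding was measured here.

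To ask whether unloading changed the transcripts of ribosome biogenesis, each member was compared between the groups with limma on log2(RPKM + 0.1). Of the 43 members, 8 were lower in HLU mice at an unadjusted p under 0.05 and at least 1.2-fold (Gar1, Myc, Nop16, Heatr1, Utp20, Wdr12, Imp4 and Nop56), which is 18.6% of the members, where 4.76% of all features tested were lower by the same rule. Higher in HLU mice by this rule were 0 members, against 1.11% of all features, and the count was also 0 by limma's voom method on recovered reads. At an adjusted p under 0.1 limma called 0 members by either method, against 0.0% of all features, while 9 members had an unadjusted p under 0.05 at any fold, against 6.18% of features. The lowest adjusted p of a member was 0.744, so no single member passed the correction. None of the 43 had groups that did not overlap, against 0.0177% of features with each HLU mouse below each control mouse.

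The log2 fold change of HLU against control was below 0 in 43 of 43 members, where 67.9% of all features were below 0, and it was below 0 in 37 members after median-of-ratios rescaling and in 33 after quantile normalization. The members' median log2 fold change was -0.25, against -0.10 over all features tested. Rescaling moved the median of all features to -0.01 and quantile normalization to 0.00, and relative to it the members lay at -0.15 under each of the 3 scalings. Over all features the share of higher among the calls was 18.9%, and it was 49.1% after rescaling and 55.8% after quantile normalization. The 8 members called became 4 after rescaling (Gar1, Heatr1, Myc and Nop16), against 2.33% of features, and 3 after quantile normalization (Gar1, Heatr1 and Myc), against 2.14%. At least 6 HLU mice lay below the control median in 35 members, and all 8 did in 10 members. These 2 counts are without rescaling, and their share over all features was not computed.

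**Figure D1:**
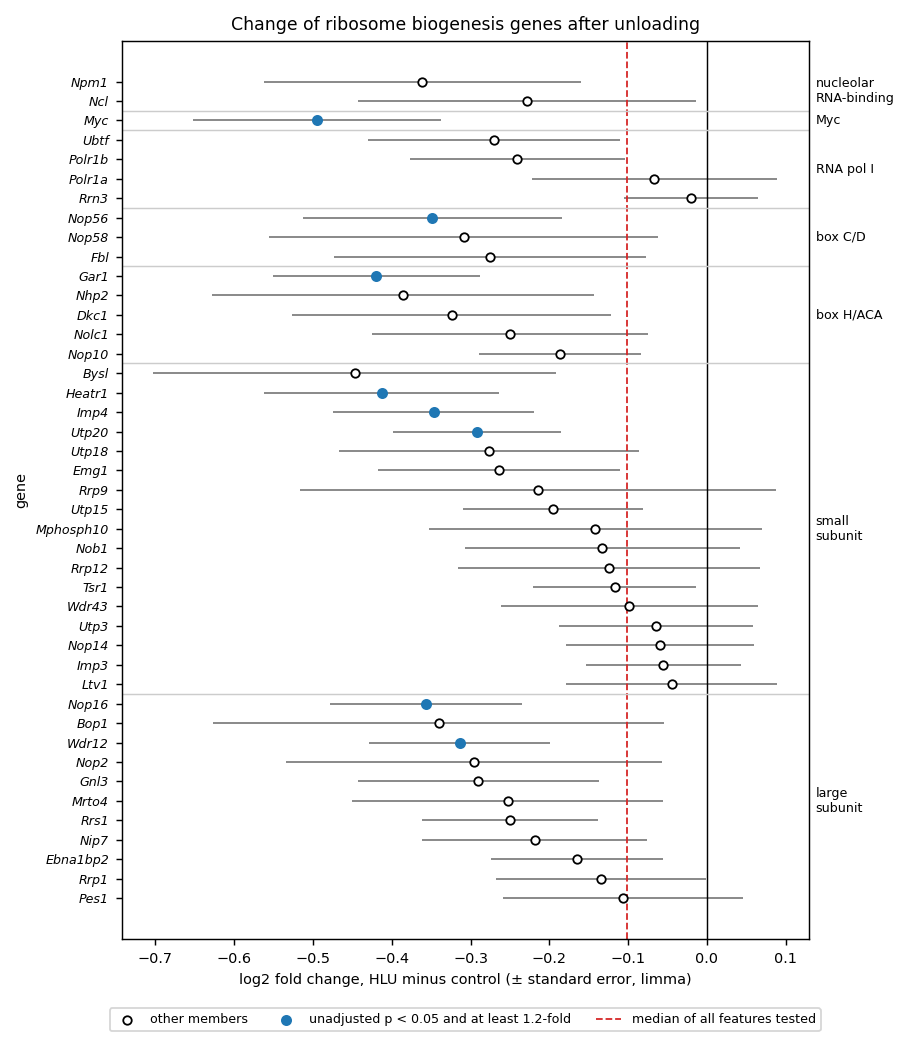
Log2 fold change of HLU against control for the 43 members (horizontal axis) with the standard error from limma, grouped by role. Each point lies below 0, where 37 do after median-of-ratios rescaling and 33 after quantile normalization, filled points are the 8 members past the unadjusted threshold, and the dashed line is the median of the 16973 features tested at -0.10.

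**Figure D2:**
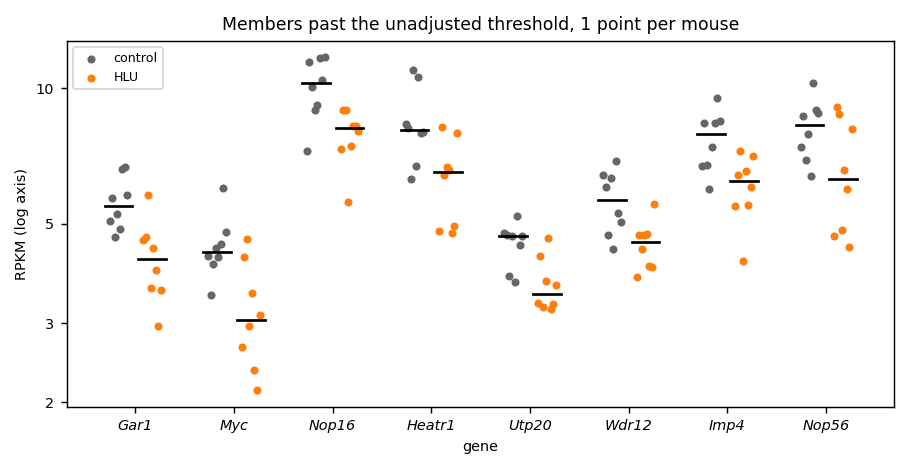
RPKM of the 8 members lower in HLU mice (log axis), with 1 point per mouse and a line at the group median of 8 mice. The groups overlap in each gene, and the HLU median lies under the control median in each.

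Ncl (nucleolin) and Npm1 (nucleophosmin), abundant RNA-binding proteins of the nucleolus that accompany the ribosomal precursors, did not pass the threshold. The lowest, median and highest values of Ncl were 60.9, 99.3 and 138 RPKM in control mice and 52.5, 83.3 and 121 RPKM in HLU mice. Those of Npm1 were 63.8, 108 and 145 RPKM in control and 48.4, 88.0 and 107 RPKM in HLU mice. The groups of both genes overlapped widely, with a log2 fold change of -0.23 (SE 0.21, limma p = 0.303, exact permutation p = 0.323) for Ncl and a log2 fold change of -0.36 (SE 0.20, limma p = 0.0900, exact permutation p = 0.108) for Npm1. Below the control median were 6 of 8 HLU mice in Ncl and 8 of 8 in Npm1.

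Myc, the transcription factor upstream of many of these genes, was lower in HLU mice. Its lowest, median and highest values were 3.46, 4.32 and 5.99 RPKM in control mice and 2.13, 3.05 and 4.62 RPKM in HLU mice, and 5 HLU mice lay below the lowest control. The difference was 1.41-fold, with a log2 fold change of -0.495 (SE 0.16, limma p = 0.00596, exact permutation p = 0.00730), the most negative among the members. The gene lies at chr15:61985391-61990374 (plus strand) on GRCm38. The call remained in each of the 16 comparisons that left out 1 mouse, and was lost when the erythroid and immature granulocyte levels of each mouse were added as covariates.

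RNA polymerase I genes, which transcribe the ribosomal RNA precursor, gave 0 of 4 calls by limma, with a median log2 fold change of -0.15 and no unadjusted p under 0.05. Polr1a encodes the largest subunit of the enzyme, and its lowest, median and highest values were 5.25, 7.92 and 9.09 RPKM in control and 4.59, 7.28 and 9.65 RPKM in HLU mice. Polr1b encodes the second-largest subunit and had 3.94, 5.68 and 7.00 RPKM in control and 3.70, 4.47 and 6.30 RPKM in HLU mice. The highest value of Polr1a came from an HLU mouse, and Polr1b differed by less than its spread. Tests gave a log2 fold change of -0.07 (SE 0.16, limma p = 0.673, exact permutation p = 0.669) for Polr1a, which turned above 0 under both other scalings, and a log2 fold change of -0.24 (SE 0.14, limma p = 0.0962, exact permutation p = 0.0856) for Polr1b. Ubtf, which binds the promoter of the ribosomal RNA genes, had 9.74, 12.7 and 17.9 RPKM in control and 6.41, 10.8 and 14.8 RPKM in HLU mice. Rrn3, which joins the polymerase to that promoter, had 12.4, 14.8 and 16.8 RPKM in control and 12.4, 14.4 and 16.3 RPKM in HLU mice. The Ubtf groups overlapped, with a log2 fold change of -0.27 (SE 0.16, limma p = 0.109, exact permutation p = 0.113), and the Rrn3 groups had nearly the same range. Rrn3 had a log2 fold change of -0.02 (SE 0.09, limma p = 0.816, exact permutation p = 0.755), the smallest difference of the members, which also turned above 0 under both other scalings.

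Box C/D genes had 1 of 3 members lower, Nop56, with a median log2 fold change of -0.31. Nop56, a scaffold of the particle, had lowest, median and highest values of 6.40, 8.29 and 10.3 RPKM in control mice and 4.44, 6.28 and 9.11 RPKM in HLU mice. In this gene 4 HLU mice lay below the lowest control while 2 lay above the control median. The difference was 1.27-fold, with a log2 fold change of -0.35 (SE 0.16, limma p = 0.0490, exact permutation p = 0.0566), at the edge of the threshold. The call was lost in 11 of 16 comparisons that left out 1 mouse (Control 1, 2, 4, 6, 7 or 8, or HLU 1, 4, 5, 6 or 7). It was also lost in 10 of 15 other alternatives, among them both other scalings and both kinds of marker covariate (proliferation, or erythroid and immature granulocyte). Nop56 lies at chr2:130274430-130279313 (plus strand), overlaps Idh3b and also overlaps snoRNA genes. Fbl (fibrillarin), the methyltransferase of the particle, had 2.93, 6.16 and 8.56 RPKM in control and 3.41, 4.49 and 6.30 RPKM in HLU mice, on 31 to 155 reads per library. Its groups overlapped over most of their range, with a log2 fold change of -0.28 (SE 0.20, limma p = 0.182, exact permutation p = 0.195). The other scaffold, Nop58, did not pass, at a log2 fold change of -0.31.

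Box H/ACA genes had 1 of 5 members lower, Gar1, with a median of -0.32. Gar1 is a core protein of the particle, and its lowest, median and highest values were 4.66, 5.48 and 6.67 RPKM in control mice and 2.96, 4.17 and 5.78 RPKM in HLU mice. There were 6 HLU mice below the lowest control, and 1 lay above the control median. The difference was 1.34-fold, with a log2 fold change of -0.42 (SE 0.13, limma p = 0.00534, exact permutation p = 0.00482), the lowest limma p among the members. Gar1 lies at chr3:129824912-129831396 (minus strand), and its call held in each of the 16 comparisons without 1 mouse and under both other scalings. With the proliferation level as a covariate the log2 fold change of Gar1 was -0.25, under the fold threshold. Dkc1 (dyskerin), the pseudouridine synthase, had 11.8, 21.2 and 25.6 RPKM in control and 10.6, 15.3 and 22.4 RPKM in HLU mice. Nop10, the smallest core protein, had 34.6, 45.1 and 52.5 RPKM in control and 34.9, 37.5 and 42.1 RPKM in HLU mice. Dkc1 varied widely in both groups, whereas Nop10 was tightly held in HLU mice and lay below the control median in 8 of 8. They had a log2 fold change of -0.32 (SE 0.20, limma p = 0.129, exact permutation p = 0.146) for Dkc1 and a log2 fold change of -0.19 (SE 0.10, limma p = 0.0868, exact permutation p = 0.0564) for Nop10. The remaining members, Nhp2 of the core and the snoRNP chaperone Nolc1, had values between -0.39 and -0.25, with limma p of at least 0.130.

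Small subunit factors had 3 of 17 members lower, Heatr1, Utp20 and Imp4, with a median log2 fold change of -0.14. Heatr1 belongs to the large particle that first forms on the precursor, and its lowest, median and highest values were 6.29, 8.10 and 11.0 RPKM in control and 4.78, 6.50 and 8.21 RPKM in HLU mice. Utp20, a very large scaffold of the same particle, had 3.70, 4.70 and 5.20 RPKM in control and 3.23, 3.49 and 4.64 RPKM in HLU mice. In Heatr1, 3 HLU mice lay below the lowest control, and in Utp20 5 did, with all 8 below the control median. The differences were 1.33-fold for Heatr1, with a log2 fold change of -0.41 (SE 0.15, limma p = 0.0131, exact permutation p = 0.0176), and 1.22-fold for Utp20, with a log2 fold change of -0.29 (SE 0.11, limma p = 0.0142, exact permutation p = 0.00684). Imp4, which with Imp3 and Mphosph10 forms a unit bound to the U3 snoRNA, had 5.98, 7.90 and 9.50 RPKM in control and 4.13, 6.21 and 7.26 RPKM in HLU mice. All 8 HLU mice lay below the control median of Imp4, with a difference of 1.27-fold and a log2 fold change of -0.35 (SE 0.13, limma p = 0.0145, exact permutation p = 0.00948). The call of Imp4 was lost under both other scalings and without HLU 4 and HLU 7 together. It was also lost with the proliferation level as a covariate and with the erythroid and immature granulocyte levels as covariates. That of Utp20 was lost without Control 6, under both other scalings, with the proliferation level as a covariate and with a pseudocount of 1. The call of Heatr1 was lost with the proliferation level as a covariate. On GRCm38, Heatr1 lies at chr13:12395027-12440289 (plus strand), Utp20 at chr10:88746607-88826804 (minus strand) and Imp4 at chr1:34439851-34449356 (plus strand), and Heatr1 overlaps Lgals8.

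The other small subunit factors did not pass. Bysl (bystin), needed for late maturation, had lowest, median and highest values of 10.1, 23.6 and 41.1 RPKM in control and 8.60, 15.5 and 19.9 RPKM in HLU mice. Nob1, the endonuclease that makes the final cut at the end of the small subunit RNA, had 2.18, 3.59 and 4.63 RPKM in control and 2.23, 3.11 and 3.95 RPKM in HLU mice. Control mice differed more from each other in Bysl than HLU mice did, with a coefficient of variation of 45.0% against 23.7%, and all 8 HLU mice lay below the control median. Tests gave a log2 fold change of -0.45 (SE 0.26, limma p = 0.0988, exact permutation p = 0.123) for Bysl, large but within its spread, and a log2 fold change of -0.13 (SE 0.17, limma p = 0.457, exact permutation p = 0.449) for Nob1. The 12 factors not described singly (Emg1, Utp15, Utp18, Tsr1, Rrp9, Mphosph10, Rrp12, Wdr43, Imp3, Utp3, Nop14 and Ltv1) had log2 fold changes from -0.28 to -0.04, with the lowest limma p at 0.104.

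Large subunit factors had 2 of 11 members lower, Nop16 and Wdr12, with a median log2 fold change of -0.25. Nop16, a nucleolar factor of the early large subunit, had lowest, median and highest values of 7.24, 10.3 and 11.7 RPKM in control mice and 5.58, 8.15 and 8.95 RPKM in HLU mice. All 8 HLU mice lay below the control median. The difference was 1.28-fold, with a log2 fold change of -0.36 (SE 0.12, limma p = 0.00950, exact permutation p = 0.00715). The call was lost under quantile normalization and with the erythroid and immature granulocyte levels as covariates. Nop16 lies at chr13:54584185-54590090 (minus strand). Rrs1, which takes part in building the 5S particle into the subunit, had 8.05, 9.69 and 11.7 RPKM in control and 6.77, 8.38 and 10.6 RPKM in HLU mice. With a log2 fold change of -0.25 (SE 0.11, limma p = 0.0389, exact permutation p = 0.0283) it had an unadjusted p under 0.05 but a difference of 1.19-fold, under the fold threshold. Gnl3 (nucleostemin), a nucleolar GTPase abundant in proliferating progenitors, had 35.04, 51.4 and 63.5 RPKM in control and 28.7, 43.3 and 51.4 RPKM in HLU mice. Its groups overlapped, with 7 of 8 HLU mice below the control median and a log2 fold change of -0.29 (SE 0.15, limma p = 0.0761, exact permutation p = 0.0819).

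Bop1, Pes1 and Wdr12 form 1 complex (PeBoW) needed to process the large subunit RNA, and 1 of the 3 passed. Wdr12 had lowest, median and highest values of 4.39, 5.65 and 6.88 RPKM in control mice and 3.798, 4.56 and 5.52 RPKM in HLU mice. Each HLU mouse was below the control median, with a difference of 1.24-fold and a log2 fold change of -0.31 (SE 0.12, limma p = 0.0143, exact permutation p = 0.0106). The call of Wdr12 was lost under both other scalings and with the proliferation level as a covariate. Bop1 had 2.85, 6.01 and 9.41 RPKM in control and 1.70, 5.29 and 5.76 RPKM in HLU mice. Pes1 had 11.8, 17.6 and 24.3 RPKM in control and 10.2, 16.4 and 18.6 RPKM in HLU mice. In both, the groups overlapped over most of the HLU range, and the highest values were from control mice. Bop1 had a log2 fold change of -0.34 (SE 0.29, limma p = 0.251, exact permutation p = 0.285) and Pes1 a log2 fold change of -0.11 (SE 0.15, limma p = 0.494, exact permutation p = 0.504). Wdr12 lies at chr1:60069785-60098645 (minus strand) and overlaps Carf, and Bop1 overlaps Mroh1 and Scx. The 5 large subunit factors not described singly (Nip7, Ebna1bp2, Mrto4, Nop2 and Rrp1) had log2 fold changes from -0.30 to -0.13, with the lowest limma p at 0.145.

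The mice did not contribute evenly. The lowest of the 16 values fell in HLU 4 for 16 members and in HLU 7 for 12, while the highest fell in Control 7 for 15 members and in Control 6 for 13. HLU 1 was below the median of the 16 mice in 41 of 43 members, HLU 7 in 36 and HLU 4 in 34, whereas HLU 2 and HLU 3 were below it in 14 and 15, and Control 6 in 2. These counts are without rescaling and were not made over all features. The median-of-ratios factors were lowest in HLU 4 (0.897), HLU 1 (0.913) and HLU 7 (0.914). They were highest in Control 7 (1.12) and Control 8 (1.11), with HLU 5 at 1.07 and Control 6 at 1.04. Without HLU 4 and HLU 7, which were chosen for their correlation with the other libraries after the data had been seen, 7 members were lower, against 2.14% of features, 41 lay below 0 and the median was -0.15, against -0.05 over all features. The number of members called ranged from 6 to 13 when 1 mouse was left out, with 13 without Control 5, against 6.60% of features, and 6 without Control 6, against 2.98%. Over all features the share lower ranged from 2.77% to 8.16% in these comparisons, and Gar1, Heatr1, Imp4, Myc, Nop16 and Wdr12 were among the members called each time.

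**Figure D3:**
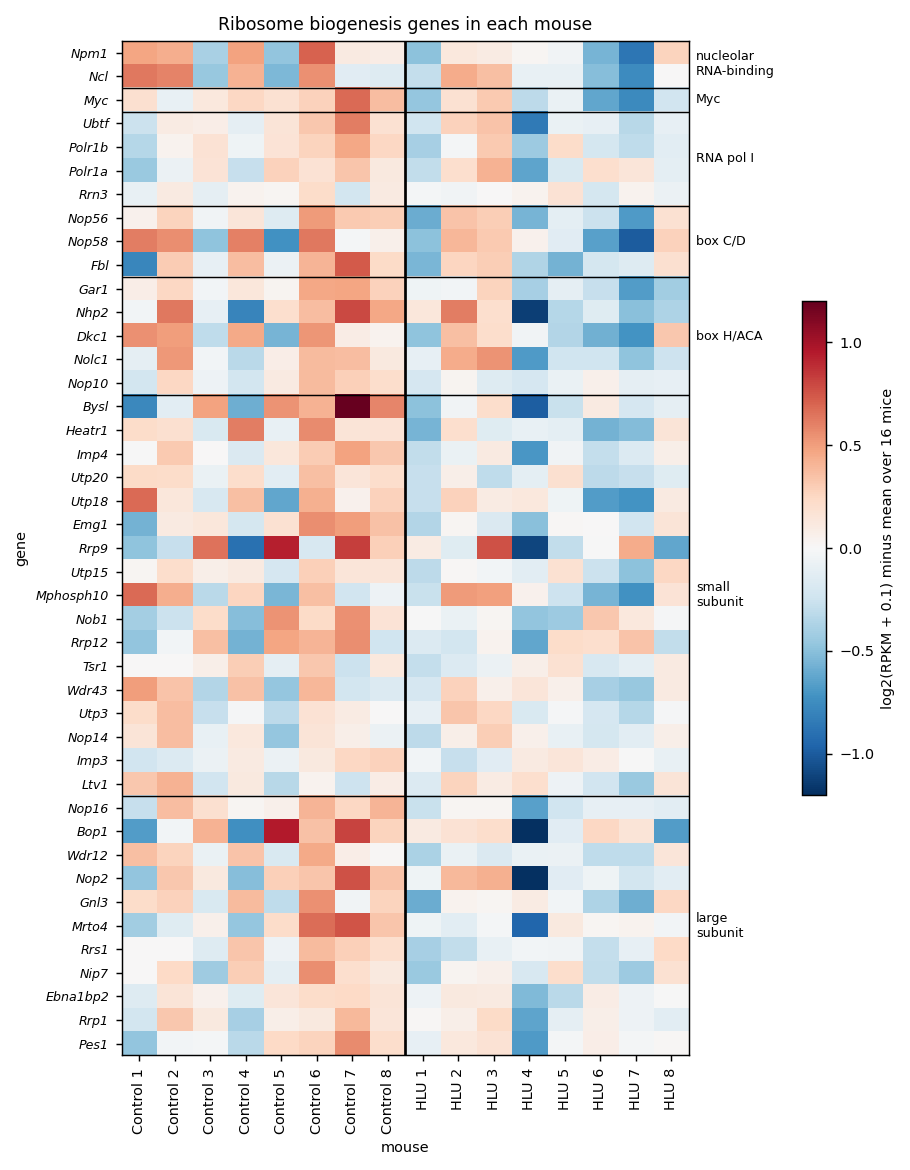
Log2(RPKM + 0.1) of each member (rows, grouped by role) in each of the 16 mice (columns), minus the member's mean over the mice. Blue cells gather in HLU 1, HLU 4 and HLU 7 and red cells in Control 6 and Control 7, and in some mice, such as Control 1 and Control 5, the members split into high and low sets. Values are without median-of-ratios rescaling, whose factors were lowest in HLU 4, HLU 1 and HLU 7 and highest in Control 7.

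Mean levels of proliferation and blood-cell markers were below those of control mice alongside the members, but none passed the correction. The summed level of 20 proliferation markers was 678 to 1257 RPKM in control and 336 to 1151 RPKM in HLU mice, 20 of 20 had a log2 fold change below 0, and their mean level differed by -0.47 (two-sided exact permutation p = 0.0729, adjusted 0.237 over 14 measures). Erythroid markers (10 of 12 listed) differed by -0.59 (exact permutation p = 0.0622, adjusted 0.237), megakaryocyte markers by -0.55 (exact permutation p = 0.0533, adjusted 0.237) and osteocyte markers by 0.47 (exact permutation p = 0.0696, adjusted 0.237). Immature granulocyte markers, of which Ctsg and Ms4a3 were the 2 of 5 listed, differed by -0.16 (exact permutation p = 0.585, adjusted 0.807), and B lineage markers by -0.51 (exact permutation p = 0.0845, adjusted 0.237). Osteoblast, osteoclast, mature granulocyte, plasma cell, macrophage, endothelial and adipocyte markers differed by -0.15 to 0.30 (exact permutation p of at least 0.129), and 0 of 6 skeletal muscle markers were listed under their symbols. With the proliferation level as a covariate, 2 members were lower (Myc and Nop16), against 1.73% of features, and the members' median was -0.09, against -0.04 over all features. With the erythroid and immature granulocyte levels as covariates, 4 were lower (Gar1, Heatr1, Utp20 and Wdr12), against 3.12%, with a median of -0.08, against -0.03.

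To ask whether the members vary together, their log2 values were correlated over the 16 mice after each group's mean was removed. The 903 pairs of members had a median Pearson's r of 0.33, where the 144032878 pairs of all features had 0.04. The members' median was 0.19 after median-of-ratios rescaling, 0.12 after quantile normalization, 0.21 with the erythroid and immature granulocyte levels as covariates and 0.10 with the proliferation level, and the median over all pairs was not recomputed there. Above 0 were 71.4% of member pairs against 53.0% of all pairs, and above 0.8 were 12.6% against 3.04%. Below -0.4 were 7.42% of member pairs against 17.4% of all pairs, so negative relations of this size were less frequent among the members. The permutation test, with an adjusted p under 0.1 over the 903 pairs, called 331 pairs positive and 36 negative. It was not run on pairs of all features. The smallest p that 100000 permutations within groups could give was 1e-05.

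The 3 closest pairs joined genes of different particles. Nop58 and Dkc1, of the box C/D and the box H/ACA particle, had Pearson's r = 0.98 (permutation p = 1e-05, adjusted 0.000291) and Spearman's rho = 0.94 (permutation p = 1e-05, adjusted 0.000451), and r was 0.97 without Control 5 and HLU 7. Npm1 and Nop58 had Pearson's r = 0.98 (permutation p = 1e-05, adjusted 0.000291) and Spearman's rho = 0.95 (permutation p = 1e-05, adjusted 0.000451), and r was 0.97 without HLU 6 and HLU 7. Ncl and Mphosph10 had Pearson's r = 0.96 (permutation p = 1e-05, adjusted 0.000291) and Spearman's rho = 0.96 (permutation p = 1e-05, adjusted 0.000451), and r was 0.96 without Control 1 and Control 2. Each of these relations was seen within both groups, with r of at least 0.965. At the other end were Wdr43 and Nob1, 2 small subunit factors, with Pearson's r = -0.75 (permutation p = 0.00330, adjusted 0.0146) and Spearman's rho = -0.74 (permutation p = 0.00401, adjusted 0.0218), and r was -0.70 without Control 5 and HLU 7. Wdr12 and the U3 snoRNP protein Rrp9 had Pearson's r = -0.75 (permutation p = 0.00248, adjusted 0.0118) and Spearman's rho = -0.77 (permutation p = 0.00161, adjusted 0.0121), and r was -0.74 without Control 1 and Control 6. Wdr43 and Rrp9 had Pearson's r = -0.74 (permutation p = 0.00361, adjusted 0.0155) and Spearman's rho = -0.76 (permutation p = 0.00222, adjusted 0.0147), and r was -0.66 without Control 5 and HLU 7. The transcripts of the 3 closest pairs have a GC content of 41.0% (Nop58) to 43.6% (Dkc1). The 3 most negative pairs join Wdr12 (40.35%) or Wdr43 (44.3%) with Nob1 (53.3%) or Rrp9 (59.8%), and GC content is taken up below.

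Partners in 1 complex, chosen after their values had been seen, had r of either sign before the GC content of the libraries was taken into account. Bop1 and Pes1 had Pearson's r = 0.88 (permutation p = 0.000330, adjusted 0.00278) and Spearman's rho = 0.78 (permutation p = 0.000670, adjusted 0.00720), and r was 0.76 without Control 4 and HLU 4. Bop1 and Wdr12, of the same complex, had Pearson's r = -0.63 (permutation p = 0.0140, adjusted 0.0436) and Spearman's rho = -0.68 (permutation p = 0.00636, adjusted 0.0303), and r was -0.69 without Control 4 and HLU 4. With the library's GC slope (its trend of log2 value with transcript GC content) as a covariate, Bop1 had r = 0.62 with Pes1 and r = 0.57 with Wdr12, so the sign of the second relation turned. Polr1a and Polr1b had Pearson's r = 0.73 (permutation p = 0.00227, adjusted 0.0110) and Spearman's rho = 0.65 (permutation p = 0.0106, adjusted 0.0421), and r was 0.55 without Control 1 and HLU 4. Dkc1 and Nop10 had Pearson's r = -0.01 (permutation p = 0.960, adjusted 0.976) and Spearman's rho = 0.04 (permutation p = 0.872, adjusted 0.928), and r was -0.14 without Control 6 and Control 7. Imp3 and Imp4 had Pearson's r = 0.01 (permutation p = 0.980, adjusted 0.987) and Spearman's rho = 0.13 (permutation p = 0.647, adjusted 0.780), and r was -0.28 without Control 7 and Control 8, and neither of the last 2 pairs had a p under 0.05. With the GC slope as a covariate, r was 0.62 for Polr1a and Polr1b, 0.44 for Dkc1 and Nop10 and -0.07 for Imp3 and Imp4. Of the box C/D particle, Nop56 had r = 0.705 with Nop58 and 0.639 with Fbl. With the GC slope as a covariate these were 0.925 and 0.673. Myc had a median r of 0.38 with the other 42 members, from -0.04 to 0.72, and was above 0 with 40 of them.

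The covariation of many members followed the GC content of their transcripts, described here for a low and a high set. The members between these sets were not described as a set. The 14 members with the lowest GC content of the longest coding transcript in GENCODE M21 (40.35% to 46.53%, with Ncl, Npm1, Nop58, Dkc1, Wdr12 and Wdr43) had a median r of 0.79 with each other. The 14 with the highest (53.3% to 59.8%, with Bysl, Bop1, Rrp9 and Ubtf) had 0.48, and pairs across the sets had -0.05. Some members did not follow their set. Nop10 of the low set had r = -0.02 with Wdr12, and Rrs1 of the high set had 0.65 with Wdr12 and -0.35 with Bop1. Each library has a GC slope, the change of log2 value for every 10 percentage points of GC content over 14703 features relative to the other libraries, which ranged from -0.49 to 0.40 in control and from -0.60 to 0.26 in HLU mice. The mean slope differed by 0.0027 between the groups (two-sided exact permutation p = 0.990, adjusted 0.990). Bop1 followed it with Pearson's r = 0.95 (permutation p = 1e-05, adjusted 0.000358) and Spearman's rho = 0.89 (permutation p = 3e-05, adjusted 0.00107), and r was 0.92 without Control 4 and HLU 4. Wdr43 went the other way with Pearson's r = -0.82 (permutation p = 0.000590, adjusted 0.00717) and Spearman's rho = -0.86 (permutation p = 0.000270, adjusted 0.00445), and r was -0.88 without Control 4 and HLU 4. In other members r with the slope was weaker or of the other sign. In the high set it was 0.02 for Myc, 0.13 for Imp3, 0.15 for Gar1, 0.21 for Fbl and -0.39 for Rrs1. In the low set it was -0.28 for Rrn3 and 0.46 for Nop10. Over the 43 members, GC content and r with the slope had a Spearman's rho of 0.788, a description across genes that share the same 16 libraries. The slope is itself a trend of value with GC content, fitted without the members. A positive rho is therefore largely given by its definition, and the rho over all features was not computed.

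The GC slope was then used as a covariate, added after the data had been seen. Pairs across the low and high GC sets then had a median r of 0.53 in place of -0.05. The sets were cut by GC content, so a rise across them is partly built into this covariate. The median over the 903 pairs of members was 0.56, and 91.0% of these pairs were above 0. The median over pairs of all features was not recomputed with this covariate. Ncl and Bysl, at r = -0.39 without it, had 0.31 with it. The fold changes of the members were not ordered by GC content, with a rho of -0.07, and the medians of the low and high sets were -0.22 and -0.27. With this covariate 11 members were lower in HLU mice, against 8.16% of features, with Bop1, Bysl, Gnl3 and Npm1 added and Nop56 lost.

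**Figure D4:**
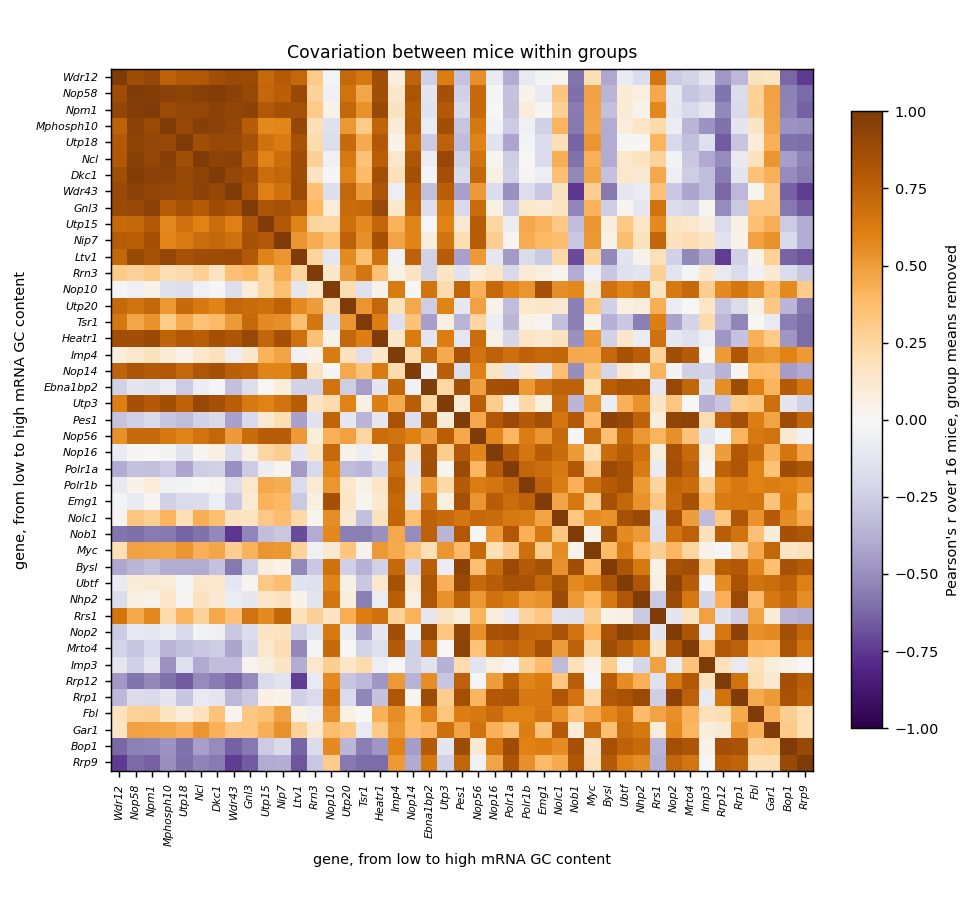
Pearson's r between members over 16 mice after removal of the group means, with the genes on both axes ordered from low to high GC content of the transcript. Low-GC genes largely form a block of high r at the upper left, with a median of 0.79, and pairs across low and high GC content have either sign, with a median of -0.05.

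**Figure D5:**
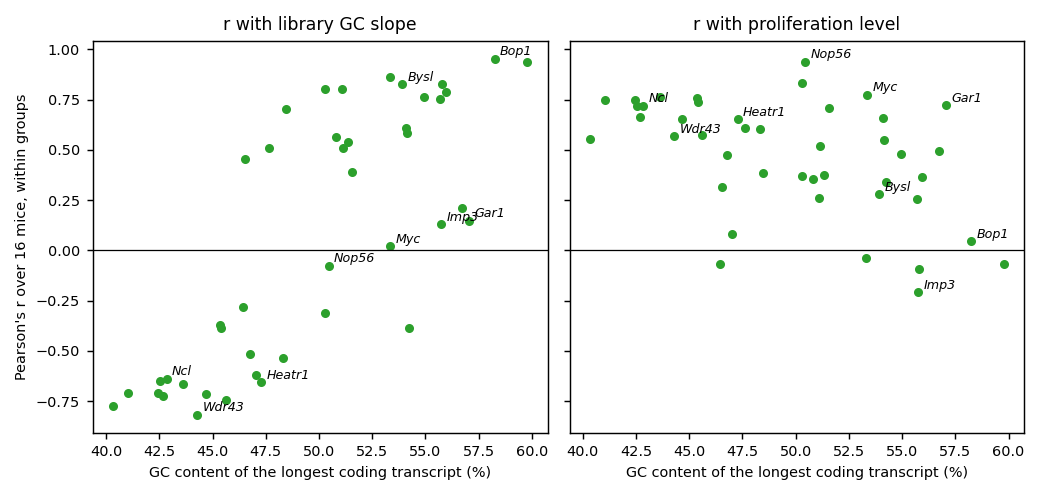
Pearson's r of each of the 43 members over the mice, within groups, with the library's GC slope (left) and with the mean level of the proliferation markers (right), against the GC content of the transcript (horizontal axis, percent). The left panel goes from -0.82 (Wdr43) to 0.95 (Bop1), and in the right panel 38 of 43 members lie above 0, with Nop56 at 0.94.

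The level of the proliferation markers varied with many members between mice of the same group. Over the 43 members the median r was 0.55, against 0.15 over all features, and 23 members had a positive relation at an adjusted p under 0.1 over 215 relations, against 0 negative. Calls by this test were not counted over all features, for this level or for the others below. Nop56 was the closest, with Pearson's r = 0.94 (permutation p = 1e-05, adjusted 0.000358) and Spearman's rho = 0.92 (permutation p = 4e-05, adjusted 0.00123), and r was 0.92 without HLU 4 and HLU 7. Myc had Pearson's r = 0.77 (permutation p = 0.00213, adjusted 0.0114) and Spearman's rho = 0.76 (permutation p = 0.00309, adjusted 0.0170), and r was 0.71 without HLU 4 and HLU 7. The erythroid level had a median r of 0.46 (all features 0.17), with 21 positive calls and 0 negative, and Ubtf was the closest, with Pearson's r = 0.91 (permutation p = 1e-05, adjusted 0.000358) and Spearman's rho = 0.89 (permutation p = 2e-05, adjusted 0.000860), and r was 0.89 without Control 7 and HLU 4. The immature granulocyte level had a median r of 0.40 (all features 0.05), with 17 positive calls and 0 negative, and Utp3 was the closest, with Pearson's r = 0.88 (permutation p = 4e-05, adjusted 0.000956) and Spearman's rho = 0.88 (permutation p = 5e-05, adjusted 0.00134), and r was 0.84 without Control 2 and HLU 7. The osteocyte level had a median r of -0.22 (all features 0.01), with 1 positive and 6 negative calls, where Utp3 had r = -0.72 and Imp3, the positive call, r = 0.60. Imp3 stood apart from the other members, with a median r of 0.01 with them and the lowest r with the proliferation level, at -0.21.

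Other genes of the process, Myc network genes and proliferation genes, in hand-written lists, had 0.0% to 25.0% lower, against 18.6% of the members. Only the exosome and snoRNP assembly list, at 25.0%, lay above the members' share. Of 17 further RNA polymerase I genes 1 was lower, Polr2h, a subunit shared by the 3 nuclear polymerases, at a log2 fold change of -0.44, and 0 were higher, with Taf1c the nearest at 0.02. Further small subunit factors had 4 of 45 lower (8.89%) and 0 higher, with the RNA acetyltransferase Nat10 lowest in p, at -0.29, and Rbm19 at 0.12. Further large subunit factors had 5 of 56 lower (8.93%) and 0 higher, with the ATPase Nvl at -0.36 and Gnl2 at 0.05. Exosome and snoRNP assembly genes had 5 of 20 lower (25.0%) and 0 higher, namely Exosc2, Exosc7, Exosc8, Shq1 and Ruvbl1, while Nhp2l1, lowest in p, had -0.26 and missed the fold threshold, and Znhit3 had 0.00. Of 7 Myc network genes 0 were lower or higher by limma, with Mxd3 at -0.49 and Mxd4 at 0.02. Of the 20 proliferation genes 1 was lower, Pcna, at -0.53, with a median of -0.48. Medians were -0.16, -0.15, -0.19, -0.23 and -0.13 for the first 5 lists in this order, against -0.10 over all features, and the background share is 4.76% lower. These lists were not recomputed under the other scalings. The limma p was 0.00265 for Polr2h, 0.0142 for Nat10, 0.0146 for Nvl, 0.0138 for Nhp2l1, 0.0866 for Mxd3 and 0.0400 for Pcna, and the adjusted p of each gene named was at least 0.744.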

How the data were processed

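Each mouse has its own deposited file of RPKM values, and the groups are those of the sample titles. Per the labels and the study's methods, the authors made TruSeq v2 libraries, sequenced them on a HiSeq (8 per lane) and aligned the reads with TopHat2 to mm9, and DESeq2 is named as a tool. The counting tool, gene lengths, any scaling between libraries and the mice that shared a lane are not given in the sources used here. Group differences in log2(RPKM + 0.1) were fitted by limma 3.58.1 under R 4.3.3, using a trend in the variance prior and Benjamini-Hochberg adjustment over the 16973 features of mean at least 0.5 RPKM. An exact two-sided permutation test over 12870 splits (smallest p 0.000155) was run for single genes, and 100000 permutations within groups for correlations, in Python 3.11.15 with scipy 1.17.1. The limma fit and the recovery of reads were tested on simulated data. Marker levels are means of centred log2 values.

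The symbol Rnf135 is carried by 3887 features, which were kept as features and not named. Positions, overlaps and GC content come from GENCODE M21 on GRCm38, matched by symbol, since mm9 was not used here. The members, the gene lists and the genes named (18 chosen for their roles, the 8 members of lowest limma p, the 3 pairs of highest and lowest r, and the gene of lowest p in each direction of each list) were chosen with earlier results of these data known. Alternatives covered the pseudocount, filter, scaling, variance model, covariates, replicate block and each mouse left out, and those with the GC slope and with pairs of libraries left out were added after the data had been seen. The depth of 7067512 to 21363584 reads puts 3 reads on a 1 kb gene at 0.140 to 0.424 RPKM, a limit that covers counting error alone.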

Additional observations from a re-analysis of the deposited data

Results flagged for a closer look

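Among 86 groups of 8 mice, 2 had 1 mouse far from the others by Dixon's criterion, where chance gives about 1 in 20. Pes1, of the PeBoW complex, was at 10.2 RPKM in HLU 4, with the nearest HLU mouse at 15.3 RPKM and a gap of 0.615 of the range. Mrto4, a large subunit factor, was at 1.63 RPKM in HLU 4, with the nearest at 2.97 RPKM and a gap of 0.708 of the range. HLU 4 also had the lowest GC slope of the 16 libraries, at -0.60, and the lowest erythroid marker level, at -1.15, and the part of either in these values was not tested.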

How the results depend on the processing

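The 23 members named were recomputed under 31 alternatives, which gave 713 values. Of these, 627 kept their direction and their side of an unadjusted p of 0.05, at any fold. A p under 0.05 was lost in 44 and gained in 23, and 19 changed sign. The fold threshold was not part of this tally, so a value that kept its side may still have lost its call. The 8 members lower (4.76% of features) became 4 with median-of-ratios rescaling (2.33%), 3 with quantile normalization (2.14%), 13 with array weights (7.12%), 4 with erythroid and immature granulocyte covariates (3.12%), 2 with the proliferation covariate (1.73%), 6 with a pseudocount of 1 (4.30%, without Nop56 and Utp20) and 6 to 13 without 1 mouse (2.77% to 8.16%, with 13 and 6.60% without Control 5). Members higher stayed at 0 by limma and voom in all 31, and the lowest adjusted p of a member ranged from 0.42 to 1.0. The median fold change of -0.25 (log2) became -0.076 and -0.0887 with those 2 kinds of covariate and -0.30 to -0.19 without 1 mouse. The median r of 0.33 became 0.19 with rescaling, 0.12 with quantile normalization, 0.21 and 0.10 with the covariates, 0.56 with the GC slope, 0.24 with the GC slope and proliferation together, and 0.28 to 0.36 without 1 mouse. The causes were not tested. Sign changes were Polr1a (0.0252 rescaled, 0.0472 quantile, 0.1892 with blood-cell covariates, 0.0108 with proliferation, -0.1351 to 0.0192 without 1 mouse and above 0 without HLU 4, 0.0045 without HLU 4 and HLU 7), Rrn3 (0.0725 rescaled, 0.1147 quantile, -0.0531 to 0.0097 without 1 mouse, and 0.0097 without Control 6 and 0.0089 without HLU 6) and Pes1 (0.0154 quantile, 0.166 with blood-cell covariates, 0.0027 with proliferation), with Ncl at 0.084 with proliferation. With blood-cell covariates Fbl turned to 0.0323, Ubtf to 0.0329, Bysl to 0.0447, Nob1 to 0.0981 and Bop1 to 0.0541. The methods name no pairing of same-numbered mice, and whether they share more than a number was not tested. The correlation of their deviations ran from -0.166 to 0.51, and 1 of 8 correlated best with its own number. With that number as a replicate block, 9 members were lower (4.95% of features), 7 of them shared with the 8, and the median r was 0.42. Without Control 2 and HLU 5, the smallest libraries, 8 were lower (5.08% of features).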
